A study of Homo sapiens with 4 samples.

Results

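The 12 S mt-rRNA gene MT-RNR1 (RNR1; mtDNA 648 to 1601, 954 nt, GRCh38) and the adjoining valine tRNA gene MT-TV (1602 to 1670, 69 nt) held 7 of the 2341 binding sites listed in 4 fPAR-CLIP libraries, 6 on RNR1 and 1 on the tRNA. A site was taken as a member when it lay on the plus strand of the mtDNA and had most of its overlap in either gene. The libraries came from HEK293, a human embryonic kidney cell line, and were 3 biological replicates of FLAG-tagged GTPBP8 (GTPBP8::FLAG) and 1 library of V5-tagged AUH (AUH::V5). All 4 were made from wild-type cells whose transgene was induced over 48 h by doxycycline (50 ng/ml). The RNA was labelled over 16 h by 4-thiouridine (4SU, 100 µM), and the cells were irradiated at 312 nm for 5 min. The tagged proteins were expressed in addition to those of the cell, and per the methods the GTPBP8::FLAG line was grown from a picked colony. AUH is a single library, so its values carry no replicate error. The members numbered 1 of 440 sites in GTPBP8 replicate 1, 2 of 716 in replicate 2, 2 of 426 in replicate 3 and 2 of 759 in the AUH library. The lists held 402701, 627603 and 403172 reads for the GTPBP8 replicates and 9684 for AUH, so an AUH value rests on far fewer reads than a GTPBP8 value.

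The 12 S mt-rRNA is the RNA core of the small mitoribosomal subunit (mt-SSU), which binds the mRNA and holds the decoding site. The valine tRNA lies between both mt-rRNA genes on the same precursor RNA and is built into the large subunit (mt-LSU) as a structural RNA. GTPBP8 is the human homolog of EngB, a bacterial GTPase of large subunit assembly, and AUH is a mitochondrial enzyme of leucine breakdown that also binds AU-rich RNA. In fPAR-CLIP, 4SU that was crosslinked to the immunoprecipitated protein is read as C in place of T, so converted reads mark crosslinked RNA. RNase T1, which per the methods trimmed the RNA of the GTPBP8::FLAG libraries, cuts after G. The study took RNR1 as an mt-rRNA against which GTPBP8 reads on the 16 S mt-rRNA could be set, and AUH as a second RNA-binding bait, to ask how specific GTPBP8 binding was.

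The sequences of the members, all on the plus strand of chromosome M of GRCh38 as the lists give them, show which stretches of RNR1 and the tRNA the reads came from. In both RNR1 sequences the capitals mark the part that an AUH site also covered, and in the tRNA sequence they mark each T, the base at which a conversion can occur.
RNR1 3′ site, chrM:1500-1562, GTPBP8 replicates 1 and 3: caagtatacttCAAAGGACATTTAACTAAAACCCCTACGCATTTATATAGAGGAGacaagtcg
RNR1 upstream site, chrM:1340-1442, GTPBP8 replicate 3: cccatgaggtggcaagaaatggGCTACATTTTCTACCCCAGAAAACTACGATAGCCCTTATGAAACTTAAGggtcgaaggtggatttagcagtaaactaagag
Valine tRNA site, chrM:1618-1656, GTPBP8 replicate 2: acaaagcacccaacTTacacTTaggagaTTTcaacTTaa

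GTPBP8 reads on RNR1 lay in the last part of the transcript. The site common to the 3 replicates, called the 3′ site here, began at position 1500 in each of them and ended at 1562 in replicates 1 and 3 and at 1559 in replicate 2. It thus started 853 nt from the 5′ end of RNR1 and ended 39 or 42 nt before its 3′ end. No library listed a site in the first 692 nt of RNR1 (648 to 1339, 72.5% of the gene) or in its last 39 nt. Sites covered 63, 60 and 166 nt of RNR1 in GTPBP8 replicates 1, 2 and 3 and 93 nt in the AUH library. A stretch of 44 nt (4.61% of RNR1) was covered in every library. No site of the minus strand overlapped RNR1 in any of the 4 lists.

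The files give no coordinates for the domains of the 12 S mt-rRNA, so the 3′ site was placed by its distance to the 3′ end and by its letters. Small subunit rRNAs end in the 3′ minor domain, whose long helix forms the decoding site and is closed at its 3′ side by a strongly conserved strand. The letters AAGTCG of that strand were searched in the sites. They stood at 1557 to 1562, the last bases of the 3′ site in replicates 1 and 3, while the site of replicate 2 ended within them. On the strand listed they occurred in 1 of 440, 0 of 716 and 1 of 426 sites of GTPBP8 replicates 1, 2 and 3 (0.227%, 0% and 0.235%) and in 0 of 759 AUH sites. Searched on both strands, they occurred in 0.227%, 0.279%, 0.469% and 0.527% of the sites of these libraries. The 3′ site therefore took in the RNA just before the last 39 nt of RNR1. By this landmark, its end in replicates 1 and 3 lay in the 3′ minor domain. The landmark gives no 5′ limit of that domain, so the rest of the site was not placed. The upstream site of replicate 3 lay wholly before the 3′ site.

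**Figure D1:**
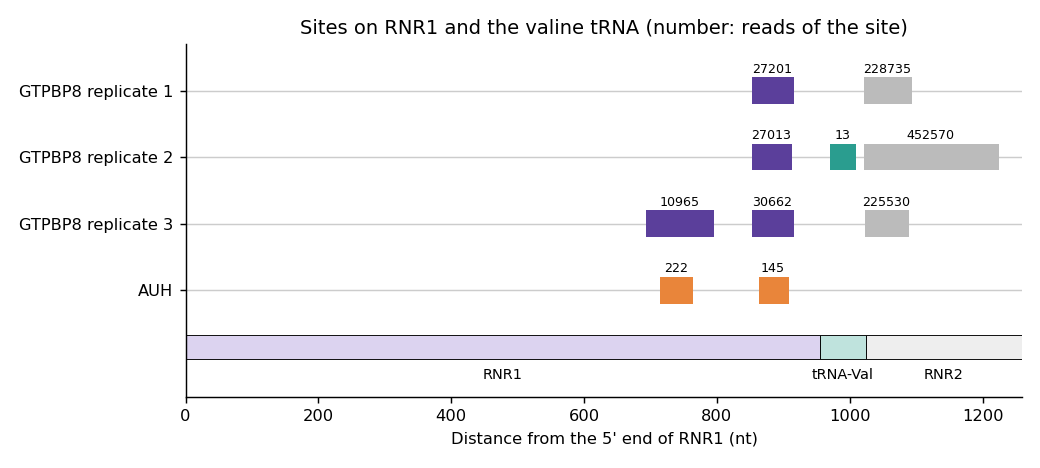
Sites along RNR1, the valine tRNA and the start of RNR2, by distance in nt from the 5′ end of RNR1, in the 4 libraries. Bars are sites (purple, RNR1 in GTPBP8; orange, RNR1 in AUH; green, valine tRNA; grey, RNR2) and the number above each is its reads. The 3′ site stands at the same place in the 3 GTPBP8 replicates, and both AUH sites on RNR1 lie within GTPBP8 sites.

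The 3′ site had 27201, 27013 and 30662 reads in GTPBP8 replicates 1, 2 and 3, on average 28292 ± 2055 (SD, n = 3 libraries). The coefficient of variation was 7.26%, so the 3 values lay close together before any scaling. It was the third most-read site of each list, after both sites of RNR2, the 16 S mt-rRNA of the large subunit. As CPM, the reads scaled to the total of all site reads, its level was 67546, 43042 and 76052, with a coefficient of variation of 27.5%. Replicate 2 was lowest on this scale. The reads of RNR2, which enter the total, were 328629, 546019 and 311469, and replicate 2 was highest there. The RNR2 sites covered 234, 366 and 229 nt, most in replicate 2. Per nucleotide of site, the 3′ site had 432, 450.2 and 487 reads.

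Crosslink signs at the 3′ site were alike in the 3 replicates. Converted reads, those with C for T, made up 60.2%, 56.9% and 61.3% of its reads (mean 59.4% ± 2.32, SD, n = 3), and replicate 2 was again the lowest. By this share the 3′ site was 11th of 23, 9th of 21 and 11th of 28 mtDNA sites, near the middle of each library. Conversions were listed at 14 positions in replicates 1 and 3, whose site holds 15 T, and at 13 in replicate 2, whose site holds 14. Per T read, counted as conversion events over conversion and non-conversion events, the rate was 12.3%, 10.97% and 12.5%. The mode location of the list, its single strongest position, was 1528 in every replicate. It falls on an A, between the T at 1526 and that at 1535.

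Most reads at the 3′ site ended in G, the base after which RNase T1 cuts. Of its reads, 95.05%, 93.05% and 94.98% ended in G in replicates 1, 2 and 3, a mean of 94.4% ± 1.14 (SD, n = 3). This was the second highest such share of the mtDNA sites in replicate 1 and the highest in replicates 2 and 3. The RNR2 site at 2944 to 3106 was alike, at 95.3%, 92.7% and 94.5%. The RNR2 site at the 5′ end of that rRNA had 91.9%, 69.1% and 94.2%, over sites of 71, 203 and 66 nt. At the plus-strand sites of mitochondrial mRNAs, the median share was 46.3%, 40.3% and 41.8% (12, 9 and 11 sites), although single mRNA sites reached 92.3%, 91.8% and 94.4%. All 6 RNR1 sites, those of AUH included, had G as their last base. Over all sites of the lists this held for 55.2%, 56.8% and 55.9% in the GTPBP8 replicates and 46.6% in the AUH library. Among the mtDNA sites alone it held for 60.9%, 76.2% and 57.1%, and for 17.6% in the AUH library.

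A second GTPBP8 site on RNR1 was listed in replicate 3 alone. It ran from 1340 to 1442 (103 nt), 57 nt upstream of the 3′ site, and was not assigned to a domain. It had 10965 reads and was the fourth most-read site of that library, so it was not a site of low counts. Its reads were converted less often than those of the 3′ site, at 40.6% (95% Wilson interval 39.7 to 41.5) against 61.3% (60.8 to 61.9) in the same library, a range of counting error alone. It ranked 25th of 28 mtDNA sites by this share. Conversions were listed at 22 positions and the site holds 23 T, but the rate per T was 6.29%, against 12.5% at the 3′ site. The share of reads ending in G was 78.3%.

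The upstream site stood just above the lowest conversion specificity that the GTPBP8 lists hold. No source used here gives the formula of this score, by its name a measure of how far mismatches are T-to-C conversions. Its lowest value was 0.602 in each of the 3 lists, which equals log10 of 4. The score was exactly at this value for 68, 89 and 58 sites in replicates 1, 2 and 3. The upstream site scored 0.605, and the only sites of replicate 3 below it were those 58. The 3′ site scored 0.802, 0.743 and 0.830, above 15 of 23, 17 of 21 and 20 of 28 mtDNA sites. The lists hold no reads outside sites, so the absence of the upstream site from replicates 1 and 2 gives no level there. Whether the same stretch fell below the lowest score in replicates 1 and 2 was not tested.

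**Figure D2:**
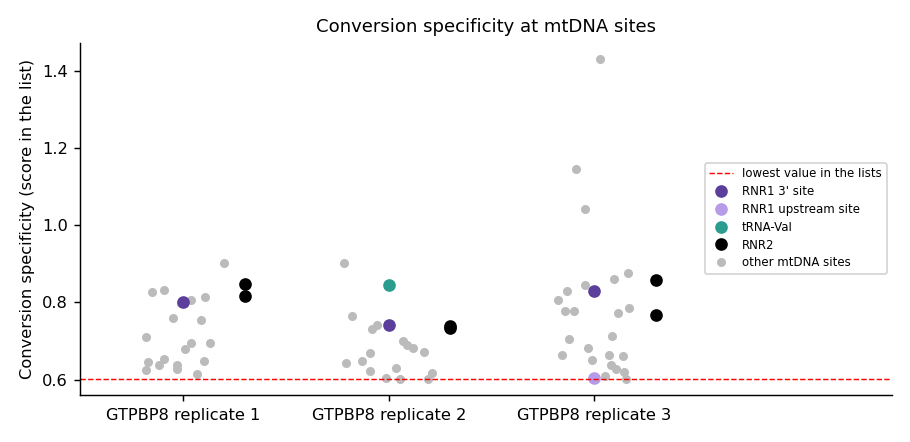
Conversion specificity, as the lists give it, of each mtDNA site in the 3 GTPBP8 libraries; RNR2 sites are drawn to the right, other mtDNA sites are spread sideways, and the dashed line is the lowest value of the lists, 0.602. The upstream RNR1 site of replicate 3 (0.605) sits on the line, and the 3′ site (0.802, 0.743 and 0.830) well above it.

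AUH had 2 sites on RNR1, each inside a stretch that GTPBP8 reads also covered. The upstream AUH site, 1362 to 1410 (49 nt), had 222 reads, more than any other mtDNA site of its library and the second most of all 759 sites. The 3′ AUH site, 1511 to 1554 (44 nt), had 145 reads, the second most on the mtDNA and the eighth most of all. With the AUH read totals as deposited, an RNR2 site at 3166 to 3242 (396 reads) came first on the mtDNA, and the RNR1 sites ranked 2 and 3 there and 4 and 12 among all sites. By the reads used here, the other 83 mtDNA sites of AUH had a median of 11 reads and at most 132. Both AUH sites lay wholly (100%) within a GTPBP8 site, the upstream one in replicate 3. The 3′ AUH site took up 69.8%, 73.3% and 69.8% of the GTPBP8 3′ site in replicates 1, 2 and 3, and the upstream AUH site took up 47.6% of the upstream site of replicate 3.

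The order of the RNR1 sites turned between GTPBP8 replicate 3, the only GTPBP8 library that listed both, and the AUH library. In GTPBP8 replicate 3 the 3′ site had 2.80 times the reads of the upstream site, or 4.57 times per nucleotide (487 against 106 reads per nt). In the AUH library it had 0.653 times the reads, or 0.727 times per nucleotide (3.30 against 4.53). The 3′ site thus held 100%, 100% and 73.7% of the RNR1 reads in GTPBP8 replicates 1, 2 and 3, and 39.5% (95% Wilson interval 34.6 to 44.6) in the AUH library. All 3 GTPBP8 values were above that of AUH, by more than the replicates differed among themselves. With 3 libraries against 1, an exact permutation test (both sides) cannot go below p = 0.25, the value it gave here. The values of 100% rest on the absence of the upstream site from 2 lists.

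In CPM, GTPBP8 exceeded AUH at the 3′ site in each replicate, but at both RNR1 sites the order depended on the scale. The 3′ site had 62213 ± 17139 CPM (SD, n = 3) for GTPBP8 and 14973 CPM for AUH, a ratio of 4.51, 2.87 and 5.08 in replicates 1, 2 and 3 (exact two-sided permutation p = 0.25, the lowest possible). Per nucleotide of site the ratio was 2.94 ± 0.743 (SD, n = 3), since the AUH site was shorter. For the share of mtDNA site reads, the ratio at the 3′ site was 0.942, 0.592 and 1.07 in replicates 1, 2 and 3. The upstream site had 27197 CPM in replicate 3 and 22924 CPM for AUH, a ratio of 1.19, but the ratio was 0.564 for CPM per nucleotide and 0.251 for the share of mtDNA site reads. With 1 library on each side, this last comparison has no test.

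The share that RNR1 took depended on what it was taken of. The mtDNA sites held 376024 of 402701, 594938 of 627603 and 372065 of 403172 site reads in GTPBP8 replicates 1, 2 and 3. In the AUH library they held 1889 of 9684. Of these mtDNA site reads, RNR2 held 87.4%, 91.8% and 83.7% for GTPBP8 and 20.8% for AUH, so the totals themselves differed between the baits. Of all site reads, RNR1 held 6.75%, 4.30% and 10.3% in GTPBP8 replicates 1, 2 and 3 and 3.79% (95% Wilson interval 3.43 to 4.19) in the AUH library. Each GTPBP8 value was higher, but the lowest was close to AUH, and the exact permutation test gave p = 0.5. When sites under 10 reads were left out, AUH stood at 5.81%, above the unfiltered 4.30% of replicate 2, the GTPBP8 mean was 7.15% ± 3.04 (SD, n = 3), and the exact permutation p was 0.75. Replicate 3 alone carried much of this difference, which was 3.34 percentage points with it and 1.74 without it.

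Of the mtDNA site reads, RNR1 held 7.23%, 4.54% and 11.2% for GTPBP8 and 19.4% (95% Wilson interval 17.7 to 21.3) for AUH. Here each GTPBP8 library was below AUH (exact two-sided permutation p = 0.25, the lowest possible). With the AUH read totals as deposited, which are multiples of the reads at some sites outside RNR1, the AUH share was 9.04% and the exact permutation p was 0.75. The 3′ site by itself differed less between the baits, at 6.67% ± 1.91 (SD, n = 3) for GTPBP8 against 7.68% for AUH. The exact permutation test of the 3′ site share gave p = 0.75, and replicate 3 was above AUH while replicates 1 and 2 were below.

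Of the mtDNA site reads outside RNR2, RNR1 held 57.4%, 55.2% and 68.7% for GTPBP8 and 24.5% (95% Wilson interval 22.4 to 26.8) for AUH. The GTPBP8 mean was 60.4% ± 7.24 (SD, n = 3), and each library was above AUH (exact two-sided permutation p = 0.25, the lowest possible). The 3′ site alone held 54.4% ± 3.47 (SD, n = 3) of these reads for GTPBP8 and 9.69% for AUH. As reads per covered nucleotide, RNR1 over these mtDNA sites together, the baits were less far apart, at a ratio of 12.2 ± 4.41 (SD, n = 3) for GTPBP8 and 8.997 for AUH, with p = 1 in the same exact permutation test.

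**Figure D3:**
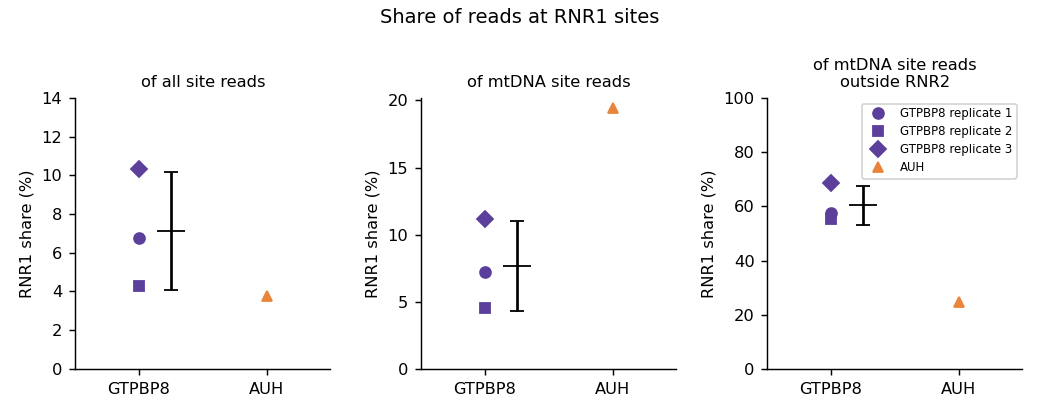
Percent of reads at RNR1 sites out of all site reads (left), mtDNA site reads (middle) and mtDNA site reads outside RNR2 (right); each panel has its own axis from 0. Purple points are the GTPBP8 replicates with their mean and SD in black, and the orange triangle is AUH. AUH (3.79%, 19.4% and 24.5%) is below every GTPBP8 replicate in the left and right panels and above them in the middle.

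Per covered nucleotide, RNR1 was the second of the mitochondrial transcripts in every GTPBP8 library, after RNR2, and the first in the AUH library. It had 432, 450.2 and 251 reads per covered nucleotide in GTPBP8 replicates 1, 2 and 3. The transcript next below was COX2 in replicate 1, at 25.3, and the ND4L/ND4 mRNA in replicates 2 and 3, at 26.7 and 36.8. These encode a subunit of cytochrome c oxidase and 2 subunits of complex I. In the AUH library, RNR1 had 3.95 reads per covered nucleotide, and the isoleucine tRNA (2.09) and RNR2 (1.83) came next. With the AUH read totals as deposited, RNR1 stayed first, and RNR2 (3.07) and the histidine tRNA (2.18) came next. The step from RNR1 down to the mRNAs in the GTPBP8 libraries exceeded the spread of RNR1 between replicates (378 ± 110.2 reads per covered nucleotide, SD, n = 3).

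RNR2, the other mt-rRNA, was compared with the RNR1 3′ site within each GTPBP8 library. Per covered nucleotide, the 3′ site had 0.307, 0.302 and 0.358 times the reads of the RNR2 sites in replicates 1, 2 and 3 (mean 0.322 ± 0.0309, SD, n = 3). It was lower in 3 of 3 libraries, and the exact sign-flip test (two-sided, on log ratios) returned its lowest possible value for 3 libraries, p = 0.25. The gap came mostly from the RNR2 site at the 5′ end of that rRNA, which had 3222, 2229 and 3417 reads per nucleotide. Its listed length was 71, 203 and 66 nt in replicates 1, 2 and 3. The other RNR2 site, at 2944 to 3106, had 613, 573 and 527, against 432, 450.2 and 487 at the RNR1 3′ site.

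Reads per distinct read sequence, a measure of how often the same sequence was read again, were higher at the RNR1 3′ site and at RNR2 than at the mRNA sites. The 3′ site of RNR1 had 2.92, 2.67 and 2.92 reads per distinct sequence, with 9309, 10117 and 10507 distinct sequences. RNR2 had 3.55, 3.10 and 3.47, so the 3′ site had 0.841 ± 0.0200 times its value (SD, n = 3, exact sign-flip p = 0.25, the lowest possible). Against the RNR2 site at 2944 to 3106 alone, the direction reversed, to 1.08 ± 0.0761 (SD, n = 3). The plus-strand mRNA sites lay between 1.32 and 1.60, 1.36 and 1.59, and 1.25 and 1.70 in replicates 1, 2 and 3. The upstream RNR1 site of replicate 3 had 1.63, within that range, although its 10965 reads exceeded those of each mRNA site of the library. Repeated sequences include PCR copies, and the part of these in the differences was not tested.

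**Figure D4:**
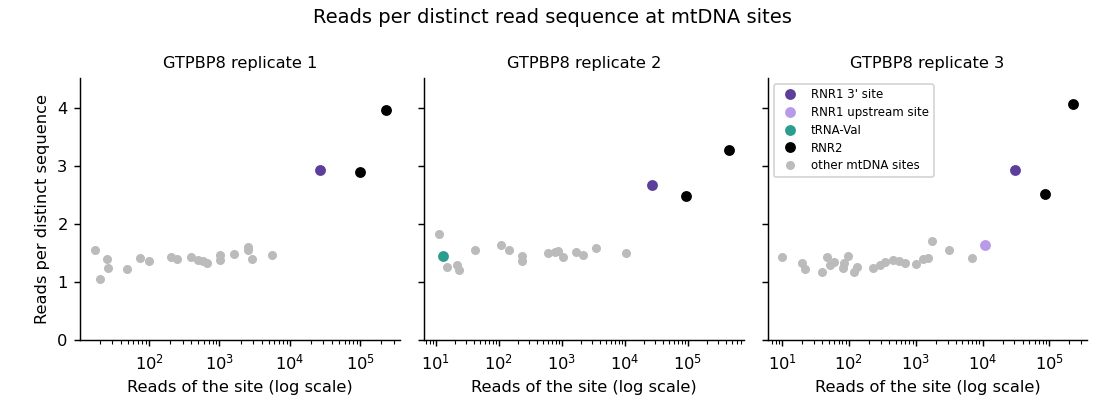
Reads per distinct read sequence (vertical axis) against reads of the site (horizontal axis, log scale) for the mtDNA sites of the 3 GTPBP8 libraries. The RNR1 3′ site (purple; 2.92, 2.67 and 2.92) lies with the RNR2 sites (black) above the other mtDNA sites, and the upstream RNR1 site of replicate 3 (light purple, 1.63) lies with the latter.

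The share of converted reads at the RNR1 3′ site went both ways against that of RNR2. It was 0.938, 1.05 and 0.936 times the RNR2 share (64.1%, 54.0% and 65.5%) in replicates 1, 2 and 3. Replicate 2 thus went the other way. The RNR2 site at the 5′ end was listed with 71, 203 and 66 nt, so replicate 2 was set against a longer stretch. The exact sign-flip test gave p = 0.5. Against the RNR2 site at 2944 to 3106 alone (63.9%, 60.3% and 61.5%), the 3′ site was lower in 3 of 3 libraries, with p = 0.25, the lowest value the exact test allows. Within RNR1, GTPBP8 reads were converted more often than AUH reads. Over all RNR1 sites the share was 60.2%, 56.9% and 55.9% in the GTPBP8 replicates (mean 57.6% ± 2.25, SD, n = 3) and 40.6% in the AUH library (149 of 367 reads, 95% Wilson interval 35.7 to 45.7). It was higher in 3 of 3 GTPBP8 libraries (exact two-sided permutation p = 0.25, the lowest possible). At the 3′ site alone it was 59.4% ± 2.32 against 42.8% for AUH.

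At the upstream site the same measure was nearly level, at 40.6% in GTPBP8 replicate 3 and 39.2% (95% Wilson interval 33.0 to 45.7) for AUH, so the interval of the AUH value holds that of GTPBP8. AUH conversions were listed at 12 positions of the 13 T of the upstream site and at 8 of the 10 T of the 3′ site. The AUH list holds no site below 33.3% converted reads, whereas the lowest GTPBP8 sites had 7.84%, 9.76% and 7.69%. Of the other 83 mtDNA sites of AUH, with a median of 71.4%, 7 were below both RNR1 sites. Different site lists and the smaller depth of AUH come with this comparison and cannot be told apart from the protein.

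**Figure D5:**
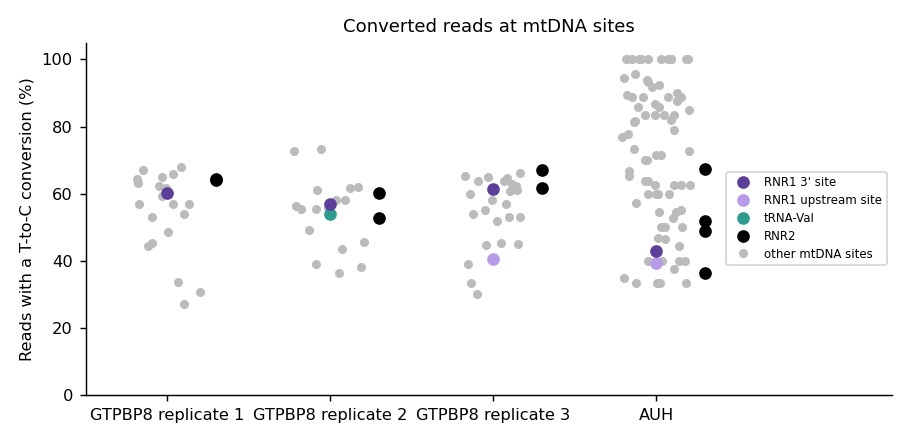
Percent of reads with a T-to-C conversion at each mtDNA site in the 4 libraries; RNR2 sites are drawn to the right and other mtDNA sites are spread sideways. The RNR1 3′ site (purple) lies at 60.2%, 56.9% and 61.3% in the GTPBP8 replicates and at 42.8% for AUH, and the upstream site (light purple) at 40.6% in replicate 3 and 39.2% for AUH.

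The valine tRNA was close to empty in these lists, although it lies between the most-read sites. Its single site, 1618 to 1656 in GTPBP8 replicate 2, had 13 reads of 9 distinct sequences, or 20.7 CPM. It was 20th of 21 mtDNA sites by reads, and 7 of its reads were converted (53.8%, 95% Wilson interval 29.1 to 76.8). Conversions were listed at 3 positions, and the site holds 9 T. None of its reads ended in G, and its last base is A, unlike each RNR1 site. The specificity score was 0.845, above 19 of the 21 mtDNA sites.

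The first RNR2 site began 2, 2 and 1 nt inside the 3′ end of the valine tRNA in GTPBP8 replicates 1, 2 and 3, and the end of the RNR1 3′ site lay 106, 109 and 107 nt before that start. Apart from the tRNA site of replicate 2, no GTPBP8 site lay in that interval, which holds the 3′ end of RNR1 and nearly all of the tRNA. AUH listed no site between its 3′ RNR1 site and position 2230. Among the 14 tRNA genes of the plus strand, 0, 1 and 0 had a site in GTPBP8 replicates 1, 2 and 3, and 2 in the AUH library, so the lack of sites was shared by the other plus-strand tRNAs. Those of AUH were the isoleucine and histidine tRNAs, and neither bait had a site on the phenylalanine tRNA at the 5′ side of RNR1. The lists hold sites only, and a tRNA without one may still have had reads.

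Of 21 genes listed in each of the 4 libraries, those with a CPM profile most like that of RNR1 were mitochondrial mRNAs. Likeness was the Euclidean distance between log2 CPM over the 4 libraries, each gene minus its own mean. COX2 was nearest, at 0.962, with 6293, 5537 and 8252 CPM in the GTPBP8 replicates and 7228 for AUH. COX3 followed at 0.985 and ND4L/ND4 at 1.06, and both, with COX2, encode subunits of the respiratory chain. COX2 was lowest in replicate 2 and highest in replicate 3 among the GTPBP8 libraries, as RNR1 was, at 67546, 43042 and 103249 CPM against 37898 for AUH. They differed in the AUH library, where COX2 lay within its GTPBP8 range and RNR1 below its own.

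Few nuclear genes for the partners of the 12 S mt-rRNA had a site. Of 43 genes for mt-SSU proteins, 12 S mt-rRNA modifying or assembly factors and mitochondrial initiation factors, 1, 3 and 0 had a site in GTPBP8 replicates 1, 2 and 3, and 2 had one in the AUH library. These are 2.33%, 6.98%, 0% and 4.65% of the list, beside 0.883%, 1.90%, 0.868% and 1.93% of the 20043 nuclear protein-coding genes of RefSeq, and they rest on 0 to 3 genes a library. They were MRPS21 in replicates 1 and 2, MRPS7 and MRPS35 in replicate 2, and MRPS2 and MRPS28 for AUH, all of which encode mt-SSU proteins. Each of their sites had between 5 and 14 reads, and that of MRPS28 lay in an intron shared with a second gene name. The bait genes gave a partial check of the labels: a site in the GTPBP8 coding sequence (13 reads) was listed in GTPBP8 replicate 2 alone, and 2 sites in AUH exons (7 and 5 reads) in the AUH library alone.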

How the data were processed

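fPAR-CLIP sites were listed per library. For GTPBP8, the authors used Bcl2fastq, Cutadapt 1.15, PARpipe and PARalyzer, and deposited unnormalized counts (reads, distinct read sequences, conversions), fractions (converted reads, reads ending in G) and a specificity score per site. For AUH, no source used here names the site caller, and the deposited converted reads are expected counts, beside the fraction converted. AUH reads were converted reads divided by this fraction, rounded; the deposited total equalled this at both RNR1 sites and was a multiple at 385 of 759 sites, so it served as an alternative. Processing notes name hg38. Gene limits came from RefSeq (GRCh38), and AUH starts were made 1-based. ND4L and ND4 were joined, as overlapping genes.

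Members and lists were chosen with earlier results of these data known. Members, RNR2, flanking tRNAs, neighbours in reads per nucleotide, the 3 nearest profiles, the baits and 43 listed genes were to be named. Libraries were compared by exact permutation tests, tested on simulated data, and by exact sign-flip tests, checked on a fixed example. Over 5 comparisons between baits and 3 with RNR2, Benjamini-Hochberg adjusted p was at least 0.312 and 0.375. Intervals (95%, Wilson) cover counting error only, since reads include PCR copies. Tools were scipy 1.17.1, pandas 2.3.3, numpy 2.4.6 and matplotlib 3.10.9 in Python 3.11.15. One result is not reported here.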

Additional observations from a re-analysis of the deposited data

How the results depend on the processing

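Among 55 values recomputed under the alternatives, 54 kept the direction of the reported value or had none, and 1 reversed. Several of the 54 were unchanged: assigning sites by their centre left the RNR1 shares as they were. The limit of 10 reads removed no RNR1 site, so it could not change the conversion share or the 3′ site share. The count of overlaps, 7 under both rules, has no direction. The reversed value was the log2 ratio of reads per distinct sequence between the RNR1 3′ site and RNR2, at 0.11 against the less-read RNR2 site alone and -0.25 against both. The cause was not tested. The difference in the share of mtDNA site reads (GTPBP8 minus AUH, -11.8 percentage points) moved most with the deposited AUH totals, to -1.39, and with the 3′ site alone, an alternative chosen after seeing the data, to -1.004. With conversion events as the count, for which converted reads stood in on the AUH side, it was -5.50. The difference in the share of all site reads (3.34) was 1.34 among sites with at least 10 reads and between 1.74 and 4.75 with 1 replicate left out. With 2 libraries against 1, the smallest p is 0.333. Distinct sequences could not be used as the count in comparisons with AUH, whose list has no such column, and restricting RNR1 to its common site leaves no share of that site to compare. No paired analysis was possible because AUH is 1 library, whose label gives no number to match. This concerns GTPBP8 against AUH, since RNR1 and RNR2 were paired within libraries. The 9684 AUH reads limit each comparison between baits.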

Other observations

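A nuclear site on chromosome 3 was close in sequence to the RNR1 3′ site. This site, without a gene name (96618357 to 96618389, minus strand), had 56 reads in GTPBP8 replicate 1 and differed from it by 1 of 33 nt, and a site at the same place in replicate 3 (96618368 to 96618389) had 87 reads and differed by 1 of 22 nt. No nuclear site of replicate 2 or of AUH came within 2 mismatches of an RNR1 or valine tRNA site. Against the 27201 and 30662 reads of the 3′ site in replicates 1 and 3, these were few reads.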
